A study of Rattus norvegicus with 11 samples.

Results

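The 10 genes described here encode subunits of the transcription factor NF-kB and the proteins that restrain or feed back on it: Rela, Relb, Nfkb1, Nfkb2, Nfkbia, Nfkbiz, Bcl3, Tnfaip3, Birc3 and Ikbke. They were chosen by gene symbol, each matched 1 row of the 30560 genes in the count table, and all 10 passed the filter on low counts that left 15742 genes for testing. RNA of striatal tissue was sequenced on day 3 from 11 adult male Sprague-Dawley rats, with separate rats as replicates. IC (common hemorrhage) was 3 rats given 0.2 U of collagenase VII-S in 1.0 µL of saline into the right striatum, an enzyme that breaks vessel walls and causes bleeding. IS (severe hemorrhage) was 3 rats given 0.6 U in 3.0 µL, and IS-HA was 3 rats given the IS injection, re-anesthetized with isoflurane 6 h later and relieved of 150 µL of hematoma through a catheter. Normal was 2 rats with neither injection nor aspiration, and no group used here received saline alone, so enzyme, injection and bleeding cannot be told apart in a comparison with Normal. The tissue was a whole piece of the injured striatum, or the matching region in Normal, and in such bulk samples fewer cells of a type and less RNA per cell cannot be told apart.

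NF-kB is a family of dimers that the inhibitors of the I kappa B family hold in the cytoplasm until the IKK kinase complex marks those inhibitors for destruction. The freed dimers, typically of the Rela and Nfkb1 products, switch on cytokine, chemokine and survival genes together with genes for their own inhibitors, which closes a feedback loop. A slower arm runs through the kinase NIK and trims the Nfkb2 product so that it can pair with Relb. In the brain the pathway is known for inflammatory responses of microglia, astrocytes and invading leukocytes after injury. The values below are RNA levels of the pathway's own genes, not the nuclear or phosphorylated protein.

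Several of these genes are textbook targets of NF-kB, so their promoters were searched for the kappa B consensus, the NF-kB binding motif, on both strands. The RefSeq promoter table of rat build GRCr8 held 7 of the 10 genes, with 250 bases before and 50 bases after each annotated start, and Relb, Ikbke and Birc3 had no entry. The consensus was found in 6 of the 7 promoters, against 4.18% of all 33469 promoters of the table. Within 100 bases before and 30 bases after the start it was found in the same number, 6 of 7, against 1.65% of all promoters. The match began 38 bases before the start in Bcl3, 31 bases before it in Nfkbia, 20 bases before it in Nfkb2 and 13 bases before it in Nfkbiz, and at position 4 of the transcript in Nfkb1. Tnfaip3 held 3 matches, beginning 170, 67 and 55 bases before its start, and the Rela window held no such letters, which says nothing about the factor. A match is a description of letters and not a site shown to be bound. The promoter bases from 100 before to 30 after the start are printed for 4 genes, each 5′ to 3′ on the gene's own strand with the matches in capitals. Bcl3 (chr1:88613526-88613655, minus strand), Nfkb2 (chr1:255108274-255108403, plus strand) and Nfkbia (chr6:78597043-78597172, minus strand) are among the genes whose RNA rose in all 3 hemorrhage groups. Nfkbiz rose in all 3 as well, and its bases are not printed. Tnfaip3 (chr1:15543950-15544079, minus strand) is shown because it held the most matches and passed no test below.
Bcl3: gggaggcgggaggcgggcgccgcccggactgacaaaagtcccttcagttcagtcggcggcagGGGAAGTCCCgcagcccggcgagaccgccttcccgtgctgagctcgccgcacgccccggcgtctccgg
Nfkb2: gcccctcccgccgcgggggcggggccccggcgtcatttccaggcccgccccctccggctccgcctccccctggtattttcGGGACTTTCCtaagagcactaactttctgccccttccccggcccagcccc
Nfkbia: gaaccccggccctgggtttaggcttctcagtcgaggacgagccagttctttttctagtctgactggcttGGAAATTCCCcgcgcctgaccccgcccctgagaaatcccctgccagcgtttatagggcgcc
Tnfaip3: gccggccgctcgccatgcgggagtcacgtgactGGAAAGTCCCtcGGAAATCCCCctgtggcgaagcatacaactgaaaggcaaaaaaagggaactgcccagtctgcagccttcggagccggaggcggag

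**Figure D1:**
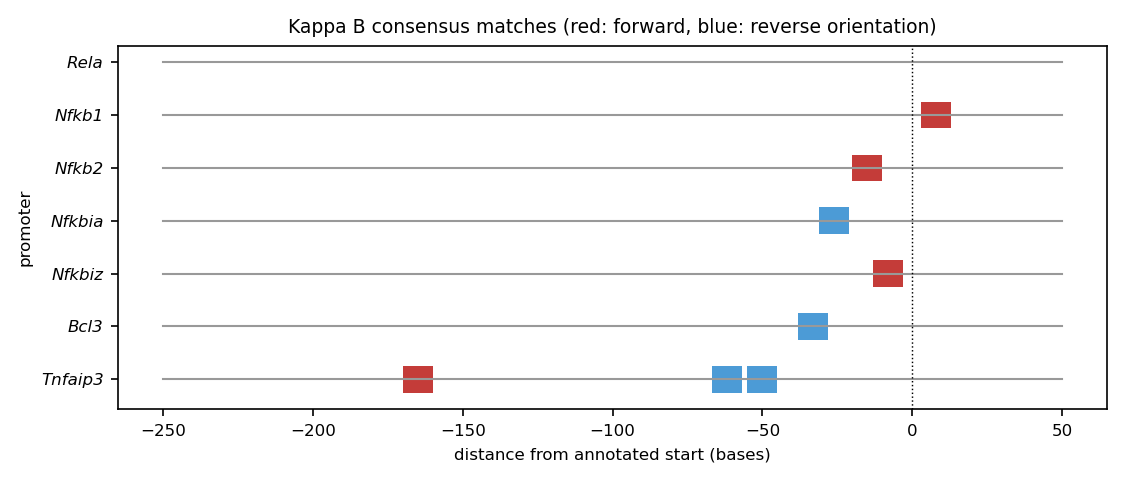
Kappa B consensus matches in the 7 promoters of the table, drawn by distance from the annotated start in bases, with forward matches in red and reverse ones in blue. In Bcl3, Nfkbia, Nfkb2 and Nfkbiz the match lies within 38 bases before the start, Tnfaip3 holds 3 and Rela none.

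The counts assigned to genes ranged from 6701301 in IS-HA replicate 2 to 18817645 in IC replicate 3, so that 3 counts, taken as the floor, stood at 0.159 to 0.448 CPM, the count scaled to the library size. Reads carried no molecular identifiers, and floors therefore cover counting error only. IS-HA replicate 2 stood apart from its group. Its log2 CPM correlated across genes at 0.9079 and 0.9158 with IS-HA replicates 1 and 3, where those correlated at 0.9819 with each other and pairs in the other groups at 0.9506 to 0.9829. Its summed neutrophil markers were 864 TPM, a level scaled to gene length and library size, against 169 and 218 TPM in the other IS-HA rats. Fitted changes that rest on it are also given without it. The striatal label was borne out by the 6 medium spiny neuron markers, which summed to 5289 and 5736 TPM in Normal, 2374 to 4913 in IC, 1224 to 3168 in IS and 1217 to 2681 in IS-HA.

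Most of these genes stood higher after hemorrhage than in Normal, and none was called lower. With edgeR's quasi-likelihood test and a Benjamini-Hochberg adjusted p under 0.05, 9 of the 10 rose in IS, against 24.8% of all genes tested. In IC 6 of 10 rose, against 13.0% of all genes, and in IS-HA 7 of 10 rose, against 19.5%. Of all genes tested, 4.64% were called lower in IC, 24.2% in IS and 12.1% in IS-HA, while 0 of the 10 were. The median log2 fold change of the 10 genes was 1.75 in IC, 2.40 in IS and 1.73 in IS-HA, where the median over all genes was 0.00, 0.02 and 0.06. These 3 comparisons share the same 2 Normal rats and are not independent of one another. With 2 Normal rats every such count leans on each of them: without Normal replicate 3 the counts were 3 in IC, 7 in IS and 4 in IS-HA, against 5.11%, 14.3% and 7.88% of all genes.

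**Figure D2:**
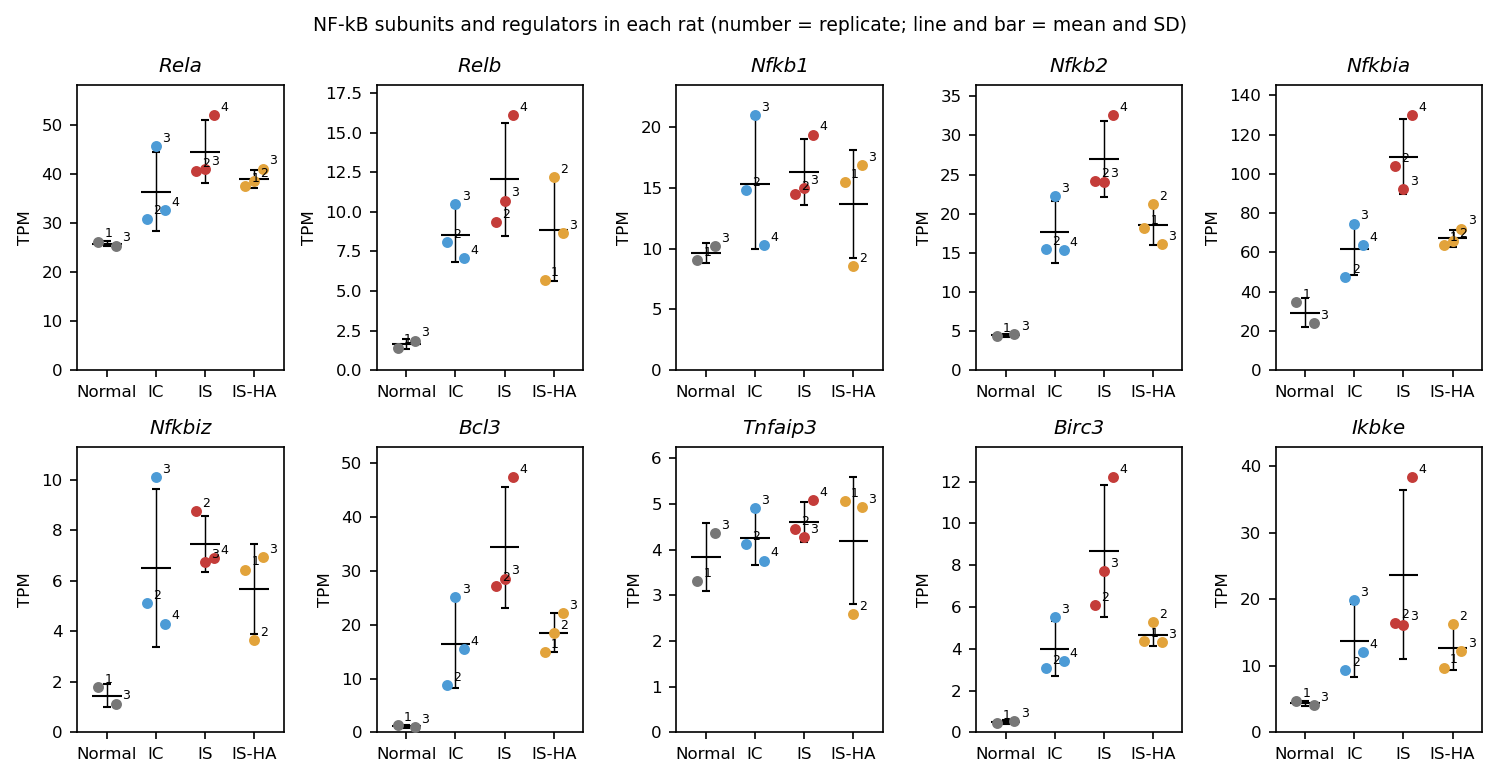
TPM of each gene in each of the 11 rats by group, where the number beside a point is the replicate, the line the mean and the bar the SD. All rats with hemorrhage lie above both Normal rats for Rela, Relb, Nfkb2, Nfkbia, Nfkbiz, Bcl3, Birc3 and Ikbke, while the groups overlap for Tnfaip3.

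Among the subunits, the 2 genes of the slower arm had the largest fold changes. Nfkb2 stood at 4.34 and 4.57 TPM in Normal, 15.5, 22.3 and 15.3 TPM in IC replicates 2, 3 and 4, 24.2, 24.1 and 32.6 TPM in IS replicates 2, 3 and 4, and 18.2, 21.2 and 16.1 TPM in IS-HA replicates 1, 2 and 3. Every rat with hemorrhage was thus above both Normal rats, by more than 3-fold. Its log2 fold change against Normal was 1.93 in IC (SE 0.30, edgeR adjusted p = 0.00146), 2.62 in IS (SE 0.31, adjusted p = 1.4e-04) and 2.06 in IS-HA (SE 0.30, adjusted p = 7.8e-04).

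Relb, whose product pairs with the trimmed Nfkb2 product, stood at 1.43 and 1.87 TPM in Normal, 8.08, 10.5 and 7.10 TPM in IC, 9.35, 10.7 and 16.1 TPM in IS and 5.70, 12.2 and 8.67 TPM in IS-HA. All 9 rats with hemorrhage were above both Normal rats, and the 3 hemorrhage groups overlapped one another. Its log2 fold change was 2.32 in IC (SE 0.46, edgeR adjusted p = 0.00612), 2.90 in IS (SE 0.47, adjusted p = 7.9e-04) and 2.45 in IS-HA (SE 0.46, adjusted p = 0.00341).

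The genes of the classical dimer differed less from Normal. Rela, the transactivating subunit, stood at 26.2 and 25.4 TPM in Normal, 30.9, 45.6 and 32.6 TPM in IC, 40.6, 41.0 and 52.0 TPM in IS and 37.5, 38.5 and 41.1 TPM in IS-HA. Both Normal rats were below all others, yet only in IS did the rise pass the test, with a log2 fold change of 0.81 (SE 0.23, edgeR adjusted p = 0.0132). In IC it was 0.43 (SE 0.22, adjusted p = 0.192) and in IS-HA 0.59 (SE 0.22, adjusted p = 0.0665). Nfkb1, which encodes the partner in that dimer as a longer precursor, stood at 9.03 and 10.2 TPM in Normal, 14.8, 21.0 and 10.3 TPM in IC, 14.5, 15.0 and 19.4 TPM in IS and 15.5, 8.60 and 16.9 TPM in IS-HA. IS-HA replicate 2 was the lowest of the 11 rats in TPM, and IC replicate 4 lay next to Normal. Nfkb1 rose in IS by 0.79 on the log2 scale (SE 0.28, edgeR adjusted p = 0.0387), a call that 13 of 21 alternative settings made, and its log2 fold change was 0.61 in IC (SE 0.28, adjusted p = 0.153) and 0.47 in IS-HA (SE 0.28, adjusted p = 0.215).

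Of the I kappa B proteins, all 3 members rose in all 3 hemorrhage groups. Bcl3, a nuclear member of that family that binds dimers of the Nfkb1 or Nfkb2 product and can activate transcription with them, had the largest log2 fold change of the 10 genes in each comparison with Normal. It stood at 1.31 and 0.967 TPM in Normal, 8.76, 25.2 and 15.5 TPM in IC, 27.3, 28.6 and 47.4 TPM in IS and 15.0, 18.5 and 22.2 TPM in IS-HA. The counts behind the Normal values were 18 and 13, against 102 to 373 in the other 9 rats, so the size of the fold rests on few Normal reads. The log2 fold change was 3.78 in IC, or 13.7-fold (95% interval 6.04 to 31.1, edgeR adjusted p = 9.0e-04). In IS it was 4.93, or 30.5-fold (95% interval 13.0 to 71.4, edgeR adjusted p = 1.1e-04), and in IS-HA 4.00, or 16.0-fold (95% interval 6.98 to 36.6, adjusted p = 5.2e-04).

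Nfkbia, the inhibitor that NF-kB induces within its own feedback loop, was the most abundant of the 10 genes in every group by mean TPM. It stood at 34.6 and 24.0 TPM in Normal, 47.4, 74.7 and 63.9 TPM in IC, 104, 92.5 and 130 TPM in IS and 63.6, 65.7 and 72.2 TPM in IS-HA. The IS rats were above every other rat. The log2 fold change against Normal was 1.02 in IC (SE 0.28, edgeR adjusted p = 0.0306), 1.91 in IS (SE 0.29, adjusted p = 5.8e-04) and 1.18 in IS-HA (SE 0.28, adjusted p = 0.0106).

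Nfkbiz, a nuclear I kappa B protein that switches on secondary response genes such as Il6, stood at 1.78 and 1.14 TPM in Normal, 5.12, 10.1 and 4.31 TPM in IC, 8.75, 6.73 and 6.90 TPM in IS and 6.45, 3.65 and 6.94 TPM in IS-HA. The hemorrhage groups overlapped one another, and IC replicate 3 was the highest of the 11 rats. The log2 fold change was 2.07 in IC (SE 0.38, edgeR adjusted p = 0.00400), 2.34 in IS (SE 0.39, adjusted p = 8.7e-04) and 1.90 in IS-HA (SE 0.38, adjusted p = 0.00449).

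The remaining members edit ubiquitin chains or phosphorylate proteins of the pathway. Birc3, a ubiquitin ligase that takes part in signaling from TNF receptors and in degrading NIK, stood at 0.440 and 0.550 TPM in Normal, 3.06, 5.50 and 3.42 TPM in IC, 6.11, 7.71 and 12.2 TPM in IS and 4.37, 5.28 and 4.31 TPM in IS-HA. In TPM the IS rats were above every other rat, and the Normal values rested on 9 and 11 counts. The log2 fold change was 2.94 in IC (SE 0.47, edgeR adjusted p = 0.00189), 4.14 in IS, or 17.7-fold (95% interval 8.38 to 37.2, adjusted p = 1.4e-04), and 3.22 in IS-HA (SE 0.48, adjusted p = 8.9e-04). Its near relative Birc2, which shares that role, had a log2 fold change of 0.07 in IS (SE 0.23, adjusted p = 0.815).

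Ikbke encodes an IKK-related kinase of antiviral and NF-kB signaling. In RefSeq a long noncoding RNA gene overlaps Ikbke and a pseudogene overlaps Birc3, and the strand setting of the counting is not given in the sources used here, so reads from these partners could be counted with them. It stood at 4.67 and 4.11 TPM in Normal, 9.40, 19.9 and 12.1 TPM in IC, 16.5, 16.2 and 38.3 TPM in IS and 9.74, 16.3 and 12.2 TPM in IS-HA. IS replicate 4 stood far above the other IS rats and above all others. The log2 fold change was 2.46 in IS (SE 0.52, edgeR adjusted p = 0.00335) and 1.55 in IS-HA (SE 0.51, adjusted p = 0.0388), and in IC it was 1.58 (SE 0.50, adjusted p = 0.0520), which did not pass the test. Without IS-HA replicate 2 these calls changed places, with 1.59 in IC (edgeR adjusted p = 0.0233) and 1.17 in IS-HA (adjusted p = 0.0951).

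Tnfaip3, the ubiquitin-editing enzyme that shuts off signaling from TNF and Toll-like receptors, was the member that passed no test. It stood at 3.32 and 4.36 TPM in Normal, 4.12, 4.91 and 3.76 TPM in IC, 4.46, 4.27 and 5.09 TPM in IS and 5.06, 2.59 and 4.93 TPM in IS-HA. In TPM every hemorrhage group overlapped Normal, and the lowest of the 11 rats was IS-HA replicate 2. Its log2 fold change was 0.10 in IC (95% interval -0.41 to 0.61, edgeR adjusted p = 0.798), 0.29 in IS (95% interval -0.23 to 0.80, adjusted p = 0.323) and 0.09 in IS-HA (95% interval -0.42 to 0.60, adjusted p = 0.777). The upper bound in IS is a 1.74-fold rise, below the lower bound of 2.41-fold for Nfkbia in the same comparison, and none of the 21 alternative settings called it against Normal.

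**Figure D3:**
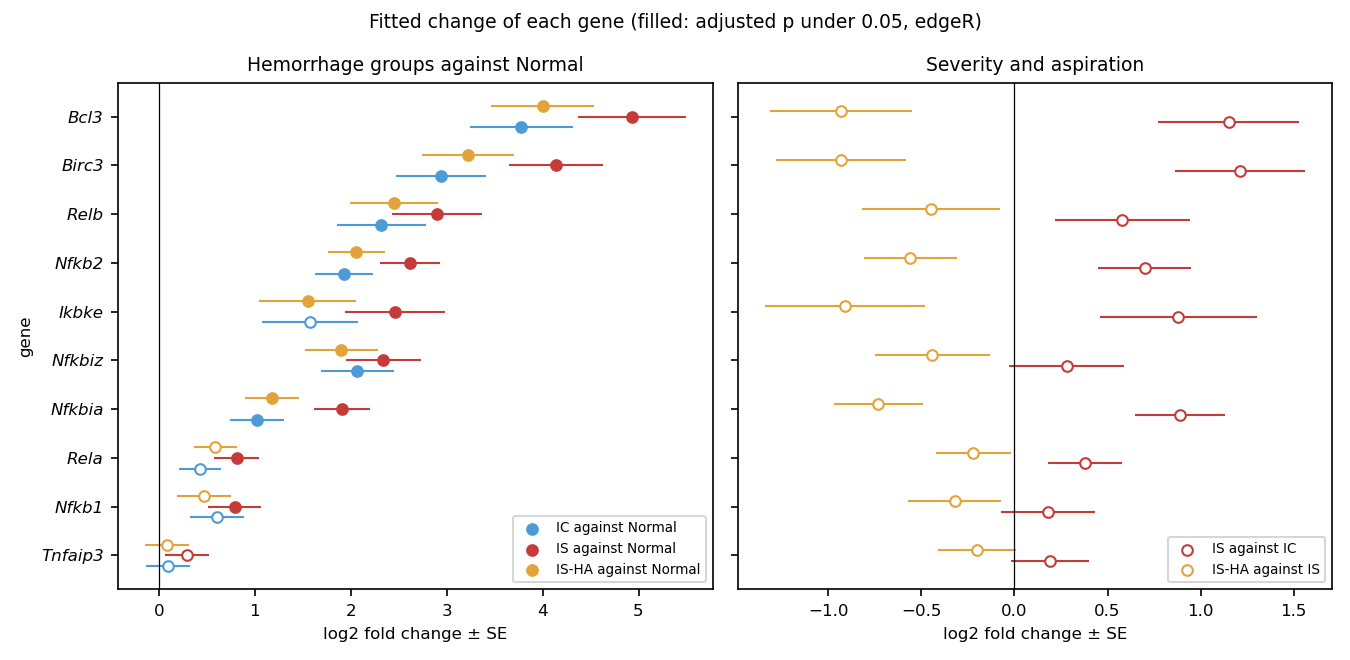
Log2 fold change of each gene with its SE, for the 3 hemorrhage groups against Normal on the left and for IS against IC and IS-HA against IS on the right, where filled points have an edgeR adjusted p under 0.05. On the left 9 genes are filled for IS and Tnfaip3 lies near 0, while on the right all points are open, to the right of 0 for IS against IC and to the left of 0 for IS-HA against IS.

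Ranges were compared as well. In normalized counts, 9 of 10 genes in IC, 10 of 10 in IS and 9 of 10 in IS-HA lay wholly above Normal, against 32.4%, 37.6% and 31.7% of all genes tested. Tnfaip3 is the gene that overlapped in IC and IS-HA, and in IS its separation was narrow, at 14.5 CPM in the lowest IS rat and 14.4 CPM in the highest Normal rat. Nfkb1 was also narrowly separated in IS-HA, at 21.5 CPM in replicate 2 and 20.5 CPM in the highest Normal rat. In TPM that IS-HA rat lay below both Normal rats for Nfkb1, at 8.60 against 9.03 and 10.2 TPM.

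The order of the members by level per length also differed between groups. In Normal, Nfkbia stood at 29.3 ± 7.53 TPM (mean ± SD, n = 2) and Rela at 25.8 ± 0.610 TPM, and their ranges overlapped. They were followed by Nfkb1 at 9.59 ± 0.794 TPM, then Nfkb2, Ikbke and Tnfaip3 between 3.84 and 4.46 TPM, then Relb, Nfkbiz and Bcl3 between 1.14 and 1.65 TPM, and Birc3 at 0.495 ± 0.0777 TPM. In IS (n = 3) Nfkbia was at 109 ± 19.2 TPM and Rela at 44.5 ± 6.45 TPM, without overlap. Bcl3, the ninth of the 10 in Normal, was the third in IS at 34.4 ± 11.3 TPM, in a range that overlapped those of Rela, Nfkb2 (27.0 ± 4.89 TPM) and Ikbke (23.7 ± 12.7 TPM). Tnfaip3 was the sixth in Normal and the last in IS, at 4.61 ± 0.429 TPM. In IC and IS-HA the first 2 places were the same as in IS, and Nfkb2 and Bcl3, then Nfkb1 and Ikbke, followed, each overlapping the next in range.

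The make-up of the Rel-family transcripts was read as a share of their summed TPM, with Rel, the remaining family member, included. Nfkb2 and Relb together made up 13.7% and 14.6% of the sum in Normal. They made up 33.2%, 32.3% and 33.5% in IC, 36.6%, 37.6% and 39.7% in IS, and 29.8%, 40.6% and 29.1% in IS-HA. The Normal rats were thus below all others, IS lay above IC, and IS-HA replicate 2 lay above IS while the other IS-HA rats lay below IC. The mean share of Rela went from 59.9% in Normal to 45.8% in IC, 43.7% in IS and 47.2% in IS-HA, while the summed level went from 43.1 ± 1.34 TPM (n = 2) in Normal to 79.7 ± 19.0, 102 ± 17.8 and 82.6 ± 2.44 TPM (n = 3 each). These shares are descriptions with no test.

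**Figure D4:**
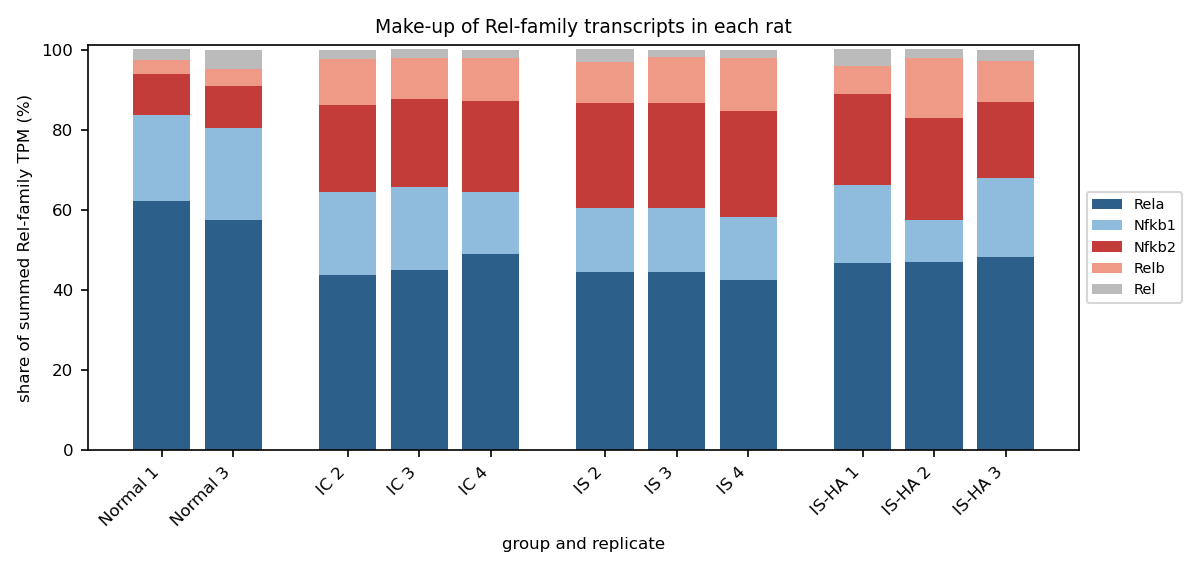
Share of Rela, Nfkb1, Nfkb2, Relb and Rel in the summed TPM of the Rel family (percent, stacked to 100) in each rat. The red parts, Nfkb2 and Relb, take 13.7% and 14.6% in Normal and between 29.1% and 40.6% in the rats with hemorrhage.

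IS was compared with IC, the lesser hemorrhage. The groups also differ in the dose and volume of collagenase injected, so enzyme, volume and bleeding cannot be told apart. All 10 genes had a positive log2 fold change, from 0.18 for Nfkb1 to 1.21 for Birc3, with a median of 0.64 where the median over all genes was -0.00. None passed the test, as was true of all 15742 genes: 0% were called in either direction by edgeR. At an unadjusted p under 0.05, 4 of the 10 genes were higher, against 10.5% of all genes. These were Nfkbia at 0.89 (95% interval 0.35 to 1.42, edgeR adjusted p = 0.148), Birc3 at 1.21 (0.44 to 1.97, adjusted p = 0.149), Bcl3 at 1.15 (0.31 to 1.99, adjusted p = 0.162) and Nfkb2 at 0.70 (0.15 to 1.24, adjusted p = 0.171). The same 4 genes were the ones whose IS rats all lay above all IC rats in normalized counts, against 19.2% of all genes. Of the other 6, Ikbke was at 0.88 (95% interval -0.05 to 1.81, edgeR adjusted p = 0.242), and Nfkb1, Nfkbiz and Tnfaip3 were below 0.30.

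This comparison depended on the tool and on a rat outside it. DESeq2's Wald test called 2 of the 10 genes, Nfkbia (adjusted p = 0.0265) and Birc3 (adjusted p = 0.0338), against 3.05% of all genes higher. Without IS-HA replicate 2, which shares its spread with the other groups in the fit, edgeR called 3, Nfkb2 (adjusted p = 0.0424), Nfkbia (adjusted p = 0.0359) and Birc3 (adjusted p = 0.0382), against 6.45% of all genes higher. Microglia and macrophage markers summed to 1785 to 2460 TPM in IC and 2907 to 4312 TPM in IS. Neutrophil markers summed to 84.6 to 268 TPM in IC and 504 to 700 TPM in IS. Both sums were thus higher in IS, although 0 of 12 and 0 of 6 markers tested passed the test. Single markers went both ways. Tmem119 was at -0.74, P2ry12 at -0.67, Itgam at -0.04 and the neutrophil marker Mmp8 at -0.04. The other markers tested ran from 0.10 for Csf1r to 2.06 for S100a9. The part of these cell types in the result was not tested.

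IS-HA was compared with IS, which had no aspiration. The IS-HA rats were also re-anesthetized and had a catheter inserted, and no group used here had these without aspiration. Removal of the hematoma therefore cannot be told apart from them. All 10 genes had a negative log2 fold change, from -0.20 for Tnfaip3 to -0.93 for Bcl3 and Birc3, with a median of -0.50 where the median over all genes was 0.05. None passed the test, and across all genes 0% were called lower and 0.00635% higher by edgeR. At an unadjusted p under 0.05, 4 genes were lower, against 3.36% of all genes. These were Nfkbia at -0.73 (95% interval -1.26 to -0.19, edgeR adjusted p = 0.540), Birc3 at -0.93 (-1.70 to -0.16, adjusted p = 0.543), Bcl3 at -0.93 (-1.77 to -0.09, adjusted p = 0.550) and Nfkb2 at -0.56 (-1.10 to -0.01, adjusted p = 0.556). Ikbke was at -0.91 (-1.85 to 0.03, edgeR adjusted p = 0.563). The comparison shares its 3 IS rats with that of IS against IC, so the opposite signs in both are not independent of each other.

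In normalized counts the IS-HA rats all lay below the IS rats for 3 of the 10 genes, Nfkbia, Nfkbiz and Bcl3, against 5.42% of all genes. In TPM the separated genes were Nfkbia, Bcl3, Nfkb2 and Birc3. Nfkbiz was not among them, since IS-HA replicate 3 at 6.94 TPM exceeded IS replicate 3 at 6.73 TPM. Nfkb2 and Birc3 overlapped in normalized counts, where IS-HA replicate 2 lay above IS replicate 2 for both, so their separation depended on the scaling. The share of all genes separated in TPM is not given here, so the TPM list is not read as a result. DESeq2's Wald test called 0 of the 10, against 0.140% of all genes lower. Without IS-HA replicate 2 the log2 fold change was -0.84 for Nfkbia (edgeR adjusted p = 0.0737), -0.92 for Relb (adjusted p = 0.0913), -1.16 for Birc3 (adjusted p = 0.0754), -0.81 for Nfkb2 (adjusted p = 0.0587) and -1.29 for Ikbke (adjusted p = 0.0902). Nfkbiz was then at -0.30, Nfkb1 at -0.17 and Tnfaip3 at -0.04, nearer to 0 than with that rat, again with 0 of 10 called, against 0.972% of all genes lower. Summed microglia and macrophage markers were 2220 to 3571 TPM in IS-HA and overlapped IS, and IS-HA replicate 2 held the highest of these, 3571 TPM. Neutrophil markers summed to 169, 864 and 218 TPM in IS-HA replicates 1, 2 and 3, against 504 to 700 TPM in IS, and T and NK cell markers to 102, 206 and 80.9 TPM, against 171 to 459 TPM in IS. Both sums were thus below IS in replicates 1 and 3 and not in replicate 2, although 0 of 6 and 0 of 4 markers tested passed the test. The T and NK cell sum rested on Cd8a, as set out below. In IS-HA against IS, Cd8a was at a log2 fold change of -1.05, Cd2 at -1.09, Cd3e at -0.22 and Cd3d at 0.27. The part of cell make-up in these values was not tested.

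Between IS-HA and IC, the groups with the lesser and the aspirated hematoma, the log2 fold changes of the 10 genes ran from -0.16 for Nfkbiz to 0.28 for Birc3, with a median of 0.14. None passed the test, as was true of all genes (0%), and 0 of the 10 had an unadjusted p under 0.05 in edgeR or an adjusted p under 0.05 in DESeq2. The 95% intervals were narrowest for Rela, from -0.28 to 0.59, and widest for Ikbke, from -0.97 to 0.90. The upper bounds of the 10 genes ran from 1.33-fold for Nfkb1 to 2.09-fold for Bcl3.

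Single rats stood out across several genes. IS replicate 4 was the highest of the 11 rats in TPM for 8 of the 10 genes, and IC replicate 3 for the other two, Nfkb1 and Nfkbiz. IS replicate 4 also held 7448205 counts, among the fewest of the 11 rats. IS-HA replicate 2 was the lowest of all for Nfkb1 and Tnfaip3, yet exceeded all but IS replicate 4 for Relb. Over the 11 rats, the median Pearson correlation of a gene with the other members was 0.93 for Nfkb2, Nfkbia, Bcl3, Birc3 and Ikbke, 0.84 to 0.90 for Rela, Relb and Nfkbiz, 0.70 for Nfkb1 and 0.39 for Tnfaip3. These values include the differences between groups. After each group's mean was subtracted, the median was 0.80 to 0.86 for Rela, Birc3 and Ikbke, 0.62 to 0.71 for Relb, Nfkb2, Nfkbia and Bcl3, 0.35 for Nfkb1, 0.28 for Nfkbiz and 0.06 for Tnfaip3. Nfkbiz and Relb, at 0.84 over the 11 rats, were at -0.19 within groups, whereas Nfkb1 and Tnfaip3 were at 0.80 in both. IS-HA replicate 2 was the lowest rat in TPM for Nfkb1 and for Tnfaip3, and no correlation was computed without it. The correlations describe rats that share groups and cell make-up and carry no test. Among the 3 tested genes outside the list whose log2 CPM followed the mean of the members most closely over the 11 rats were Sgpl1 (r = 0.994), which breaks down sphingosine phosphate, and Plxnb2 (r = 0.993), a semaphorin receptor.

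Among 44 other genes of the pathway, 41 of them tested, movement went in both directions. In IS 13 were higher and 7 lower than in Normal, with a median log2 fold change of 0.28. In IC 6 were higher and 2 lower (median 0.18), and in IS-HA 8 were higher and 3 lower (median 0.10). Of all genes tested, 24.8% were higher and 24.2% lower in IS, 13.0% and 4.64% in IC and 19.5% and 12.1% in IS-HA, so these counts lie near the background and are not read as a result about the list. Leaving out each rat in turn gave 6 to 18 higher and 3 to 10 lower in IS, 1 to 7 and 0 to 4 in IC and 3 to 11 and 1 to 4 in IS-HA, with the fewest higher without Normal replicate 3. No gene of this list was called in IS against IC or in IS-HA against IS by edgeR, where 5 and 0 were higher and 3 and 2 lower at an unadjusted p under 0.05, and DESeq2's Wald test called 2 higher and 1 lower in the former and 0 in the latter. In IS against IC, 10.5% of all genes were higher and 11.7% lower at that unadjusted threshold, and DESeq2 called 3.05% higher and 3.29% lower. In IS-HA against IS, 3.36% were lower at that threshold and DESeq2 called 0.140% lower. Without IS-HA replicate 2 edgeR called 4 higher and 4 lower in IS against IC, where 6.45% of all genes were higher and 7.85% lower, and 2 higher and 1 lower in IS-HA against IS, where 3.41% were higher and 0.972% lower. The latter were Traf3 (0.66, edgeR adjusted p = 0.0468), the deubiquitinase gene Otud7b (0.87, adjusted p = 0.0377) and Tnip2 (-0.81, adjusted p = 0.0487), named after their values were seen.

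Among the genes that rose, Zc3h12a, an RNase that degrades cytokine transcripts, was at 2.59 in IS (SE 0.49, edgeR adjusted p = 0.00187). Tnip2, a partner of Tnfaip3, was at 1.74 (adjusted p = 6.6e-04), Nfkbie, a cytoplasmic I kappa B protein, at 1.70 (adjusted p = 8.3e-04), and in IS-HA the linear ubiquitin hydrolase Otulin was at 1.31 (SE 0.22, adjusted p = 0.00198). Each of these 4 genes was called higher in all 3 hemorrhage groups.

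The genes that fell in IS were led by Tab3, an adaptor of the kinase TAK, at -2.19 (SE 0.70, edgeR adjusted p = 0.0231), which rested on 7 to 41 counts per IS rat. Nkiras1, which slows degradation of I kappa B, was at -1.95 (SE 0.34, adjusted p = 0.00115), from 166 and 201 TPM in Normal to 57.5, 58.7 and 25.5 TPM in IS. Cyld, a deubiquitinase that brakes IKK, was at -1.71 (SE 0.29, adjusted p = 9.5e-04), and Btrc, the ubiquitin ligase subunit that recognizes phosphorylated I kappa B, at -1.46 (SE 0.26, adjusted p = 0.00135). Neuronal markers fell in the same comparison in 5 of 6 genes, from a sum of 2119 and 2911 TPM in Normal to 347 to 1212 TPM in IS, and their part in these falls was not tested.

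The core kinase genes were near their Normal levels or modestly higher. Ikbkb rose in IS by 0.85 on the log2 scale (SE 0.25, edgeR adjusted p = 0.0178), whereas Chuk was at -0.37 (SE 0.28, adjusted p = 0.299) and Ikbkg at -0.01 (SE 0.27, adjusted p = 0.976). Rel was at 0.57 (SE 0.36, adjusted p = 0.206) and Nfkbib at 0.78 (SE 0.32, adjusted p = 0.0677). Map3k14 and Traf3, named after their values were seen because they encode NIK and an adaptor that targets it for degradation, went opposite ways in IS, to 1.07 (SE 0.29, edgeR adjusted p = 0.0117) and -1.07 (SE 0.34, adjusted p = 0.0229). Other genes of that step did not fall in IS. The adaptor gene Traf2 was at 1.28 (SE 0.39, edgeR adjusted p = 0.0190) and Birc3 at 4.14, while Birc2, given above, was not called. What these values mean for the NIK protein was not tested.

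**Figure D5:**
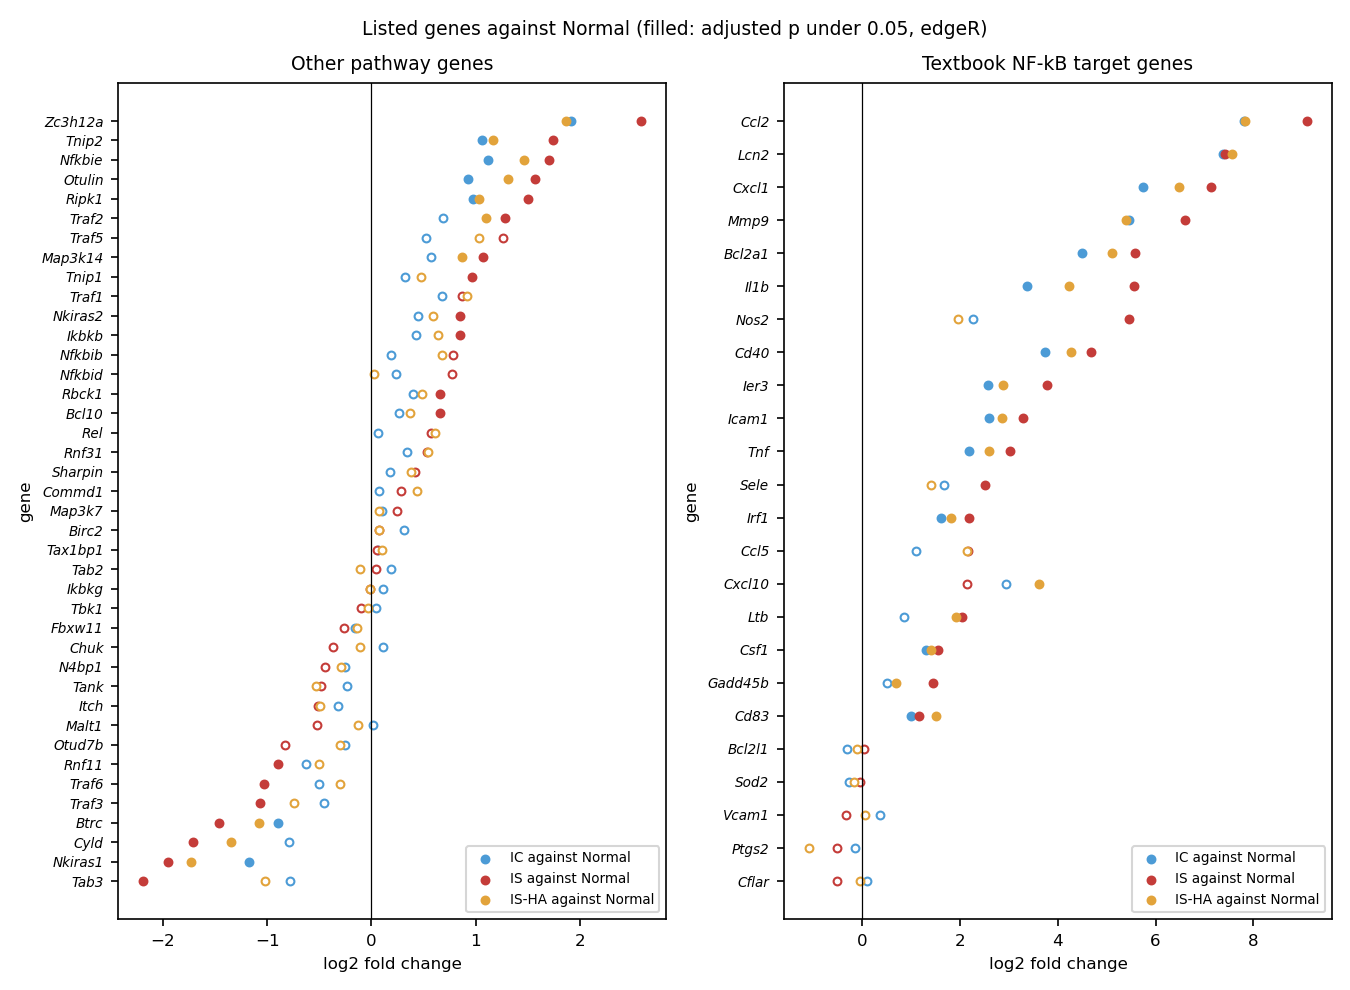
Log2 fold change against Normal of the other pathway genes (left) and of the textbook target genes (right) in IC, IS and IS-HA, where filled points have an edgeR adjusted p under 0.05 and Il6 and Cxcl2, at 0 counts in both Normal rats, and 1 pathway gene are left out. Pathway genes lie on both sides of 0, while edgeR calls no target gene lower.

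Of 28 textbook targets of NF-kB, 26 were tested. By edgeR 0 of them were called lower, against 24.2% of all genes in IS, 12.1% in IS-HA and 4.64% in IC. A rise was called for 19 in IS, 18 in IS-HA and 15 in IC, against 24.8%, 19.5% and 13.0% of all genes. Leaving out each rat in turn gave 16 to 20 in IS, 11 to 18 in IS-HA and 7 to 18 in IC, the lowest each time without Normal replicate 3, and 1 lower in IS-HA without IS-HA replicate 1. The share of all genes is not given for each of these fits, so these ranges are not read as a result about the list. DESeq2's Wald test called 1 target lower in IS-HA, against 17.0% of all genes. It was Ptgs2, the inducible prostaglandin synthase, at -1.14 (adjusted p = 0.0311), named after its value was seen. The median log2 fold change was 2.77, 2.37 and 2.22, or 2.77, 2.06 and 2.05 with the genes at 0 in Normal set to the bound given by 3 counts per library. Ccl2, the monocyte chemokine, had 2 and 3 counts in Normal and 230 to 1146 in the other rats, with mean levels of 104 ± 65.9 TPM in IC, 241 ± 70.0 TPM in IS and 103 ± 44.0 TPM in IS-HA (n = 3 each). Lcn2, an iron-sequestering protein of reactive astrocytes and neutrophils, stood at 1.63 ± 0.354 TPM in Normal (n = 2) and at 282 ± 99.7, 276 ± 94.7 and 317 ± 55.5 TPM in IC, IS and IS-HA. Its log2 fold changes were 7.37, 7.42 and 7.57 (edgeR adjusted p = 4.5e-05, 3.1e-05 and 5.5e-05).

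Il6 and Cxcl2 had 0 counts in both Normal rats. Il6 had 6 to 14 counts in IC, 11 to 16 in IS and 4 to 10 in IS-HA. Cxcl2, a neutrophil chemokine, had 3, 20 and 40 counts in IC, 96, 315 and 151 in IS and 13, 14 and 10 in IS-HA, so that the IS rats were above all others. Cxcl1, its relative, had 0 and 1 counts in Normal and 17 to 64 in the other rats. Against IS, no target was called in IS-HA by edgeR. At an unadjusted p under 0.05 in edgeR, 8 of 26 were lower, against 3.36% of all genes. DESeq2's Wald test called 2 lower, against 0.140% of all genes. Without IS-HA replicate 2 edgeR called 6 lower and 0 higher in that comparison, against 0.972% and 3.41% of all genes, and Cxcl2 (-4.44, edgeR adjusted p = 0.0428) and Il1b (-2.16, adjusted p = 0.0412) were among them. Against IC, no target was called in IS by edgeR. At an unadjusted p under 0.05 in edgeR, 12 were higher and 2 lower, against 10.5% and 11.7% of all genes. DESeq2's Wald test called 6 higher, against 3.05% of all genes. Without IS-HA replicate 2, which lies outside this comparison, edgeR called 8 higher and 1 lower, against 6.45% and 7.85% of all genes. The lower one was Vcam1, a leukocyte adhesion molecule, at -0.71 (edgeR adjusted p = 0.0462).

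Most markers of microglia and macrophages, and the neutrophil markers tested, rose with these genes in every comparison with Normal. The 12 microglia and macrophage markers summed to 231 and 310 TPM in Normal and to 1785 to 4312 TPM in the rats with hemorrhage, and 11, 10 and 11 of them were higher in IC, IS and IS-HA. The exceptions were Tmem119, at a log2 fold change of 0.36, -0.38 and 0.04 in IC, IS and IS-HA, and P2ry12 in IS, at 0.47. The list does not separate microglia from macrophages. Of the 8 neutrophil markers, which summed to 4.91 and 5.11 TPM in Normal and to 84.6 to 864 TPM after hemorrhage, 6 were tested and all 6 were higher in each group. The 5 T and NK cell markers summed to 0.864 and 1.33 TPM in Normal and to 42.1 to 459 TPM after hemorrhage, with 1, 2 and 2 of 4 tested higher. That sum rested on Cd8a, which held 9154 counts over the 11 rats, against 42 to 243 for each of the other markers of the list, and Cd3e and Cd3d, which encode chains of the T cell receptor complex, passed no test in any group. Of the 6 astrocyte markers 1, Gfap, rose in each group and 1, the glutamate transporter gene Slc1a2, fell in each. Of the 6 endothelial markers 1, 2 and 1 rose, and Flt1 fell in IS and IS-HA. Of the 6 fibroblast and pericyte markers 3, 4 and 3 rose, and Rgs5 fell in IS and IS-HA. Of all genes tested, 13.0% were higher in IC, 24.8% in IS and 19.5% in IS-HA, and 4.64%, 24.2% and 12.1% were lower. No marker of these lists was at 0 in all rats, and the part of any cell type in the rise of the NF-kB genes was not tested.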

How the data were processed

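Striatal RNA of 11 rats was sequenced from stranded poly(A) libraries. For every gene the authors deposited raw read counts, in whole numbers, and TPM, in which counts are divided by gene length and scaled to a common sum. The submitters' processing notes name, with no role or order, bcl2fastq, fastp 0.20.0, FastQC 0.11.9, MultiQC, HISAT2 2.1.0, SAMtools 1.9, featureCounts, Subread, DESeq2 and the build mRatBN7.2. The strand setting of the counting is not given in the sources used here. Columns were assigned to rats through their library names, with 0 columns left over.

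From the 30560 genes, filterByExpr of edgeR 4.0.16 (R 4.3.3) kept 15742, which were normalized by TMM and tested by quasi-likelihood F tests of a single model of the 4 groups (common dispersion 0.0691), with Benjamini-Hochberg adjustment over all of them. The study used DESeq2 on pairs of groups, which is an alternative here. A gene was called at an adjusted p under 0.05. The SE of a log2 fold change was its size divided by the square root of F, and the 95% intervals follow from it. Normalized counts are CPM after TMM scaling. Levels of different genes were compared only in TPM. Pathway genes, targets and markers were read from lists, and the lists' up to 4 genes per direction and comparison with the largest change were named, along with the remaining subunits, inhibitors and core kinases. A few genes that this rule names are not reported here. The 10 genes and these lists were chosen with earlier results of these data known. Fits were run on simulated data with a common dispersion for all genes and rats. The changed genes were well covered, so the simulation does not bear on low counts or on an outlying rat. Its outcome is not given here. Alternatives were the size factors and, separately, the Wald test of DESeq2 1.42.0, scaling by library size, other filters on counts, fits of 2 groups at a time, the replicate block, omission of each rat, scaling that left out 18 hemoglobin and mitochondrial genes, limma 3.58.1 on log2(TPM + 1) and log2(TPM + 0.1), and a fold cutoff. Promoters came from RefSeq (GRCr8). Python 3.11.15 with matplotlib 3.10.9 made the figures.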

Additional observations from a re-analysis of the deposited data

How the results depend on the processing

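Among 1254 recomputed values of single genes, 1192 kept their direction and their side of the threshold, 27 were no longer called, 18 became called and 17 changed sign, none of the last being called in the first place. Against Normal, Bcl3 and Nfkb2 were called under all 21 alternatives in all 3 comparisons, and Birc3 under all 20 that could be fitted. Leaving out each rat in turn, with a lone Normal rat assumed to vary like the other groups, gave 3 to 7 genes called in IC against Normal, 7 to 9 in IS against Normal, 4 to 8 in IS-HA against Normal and 0 to 3 in IS against IC, the lowest against Normal being without Normal replicate 3 and the highest in IS against IC without IS-HA replicate 2. The share of all genes called also changed between these fits and is given above for only some of them. These ranges are therefore not read as a result about the members. DESeq2's Wald test called 2 in IS against IC. Library size alone shifted the median log2 fold change of all genes by up to 0.14. With CPM in place of TPM the share of Nfkb2 and Relb was 11.9% in Normal, 28.2% in IC and 33.2% in IS. The cause of these moves was not tested.

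Signs changed mostly between IS-HA and IC, in values that were not called. Over the fits that each left out a rat of the series, the log2 fold change of IS-HA against IC ran from -0.34 to 0.43 for Relb, -0.31 to 0.11 for Nfkb1, -0.12 to 0.30 for Nfkb2, -0.01 to 0.27 for Nfkbia, -0.34 to 0.25 for Nfkbiz, -0.09 to 0.61 for Bcl3, -0.11 to 0.15 for Tnfaip3 and -0.41 to 0.27 for Ikbke. That of IS against IC ran from -0.02 to 0.43 for Nfkb1, and against Normal Tnfaip3 ran from -0.03 to 0.24 in IC and from -0.03 to 0.25 in IS-HA.

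Replicate numbers are shared by different rats. After each group's mean was subtracted, rats with the same number correlated across genes at -0.340 to 0.356 in IS and IC, with a mean of 0.0336 against -0.0160 for other pairs. The mean was -0.282 against 0.0854 in IS-HA and IS, and -0.158 against 0.0432 in IS-HA and IC. So few pairs cannot show whether the numbers stand for a batch or a pairing, and the main fit took the rats as unpaired. With the replicate number as a block, 4, 6 and 6 genes were called in IC, IS and IS-HA against Normal and 0 in the other 3 comparisons, and Ikbke was at 0.25 in IS-HA against IC. The share of all genes called by that fit is not given here, so these counts are not read as a result about the members. The depth limits the low Normal values of Birc3 and Bcl3 most.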
